A study of Mus musculus with 12 samples.

Results

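Expression of 9 lipid handling genes, out of 23937 genes in the deposited table, was examined in RNA sequencing libraries of mouse CD8 T cells. They were the apolipoprotein genes Apoe, Apoc1 and Apoc2, the fatty acid binding protein gene Fabp5, the fatty acid receptor gene Cd36, the lipase gene Lpl, the lipid droplet gene Plin2, and the cholesterol exporter genes Abca1 and Abcg1. The genes were chosen by name and function after results of these data were known, so their levels and differences are given as a description. The cells had been sorted by flow cytometry, with 3 libraries in each of 4 groups: blood of naive mice, brain of naive mice, and brain of mice 3 days and 30 days after stroke. Naive blood and naive brain served as the study's reference groups. The sources used here give neither strain, sex and age nor the stroke model, and nothing states that libraries within a group are from different mice. The p-values therefore measure the spread between libraries, which may be technical. One label protocol speaks of dissociated spleens, whereas the tissue labels read brain or blood.

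Apolipoproteins are the protein coat of lipoprotein particles, which carry cholesterol and triglyceride between cells. Lipoprotein lipase frees fatty acids from those particles, Cd36 and fatty acid binding proteins take them up and carry them through the cytosol, Plin2 coats the droplets in which they are stored, and Abca1 and Abcg1 export cholesterol to apolipoprotein acceptors. In the brain, apolipoprotein E is made mainly by astrocytes and by microglia, and phagocytes that clear myelin and dead cells handle large amounts of lipid.

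The libraries held from 1104490 to 21014171 reads assigned to genes. Values are CPM, read counts relative to library size that the authors scaled further, and 3 reads, the most that a count of 0 allows, were worth 0.298 to 1.65 CPM; this limit covers counting error only. A set of 1490 genes for olfactory, vomeronasal and taste receptors, which blood and brain cells are not known for, separated 5 libraries with a low level of them (165 to 884 unscaled CPM) from 7 with a high level (2016 to 7884). Low background was found in all 3 naive brain libraries and in replicate 1 of both stroke groups, and each of them was deeper than each of the other 7. All naive brain libraries were low and all blood libraries were high, so background and group cannot be told apart between them. Cd8a was detected in every library, at 52.8 to 510.4 CPM at day 3 and 797 to 1571 CPM in naive brain.

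Markers of other cells were present. All 14 microglia marker genes were detected in each group and took 2.1 to 4.95% of the reads of naive brain libraries. Their share was 0.582 to 2.41% on day 3, 0.504 to 1.14% on day 30 and 0.0522 to 0.0860% in blood. Cst3 had the highest mean of the 14, at 33399 CPM in naive brain and 5991 on day 3. C1qb came next, at 7140 and 3543 CPM, so the weight of Cst3 in the sum differed between groups. For the 14 monocyte and macrophage markers in the table, the share was 0.282 to 0.383% for naive brain, 0.618 to 1.62% for day 3, 0.330 to 0.483% for day 30 and 0.0581 to 0.201% for blood. Ly6c2 had the highest mean of that list in naive brain (3384 CPM), on day 30 (3458) and in blood (658). The next gene was at 1132, 420 and 130 CPM in the same order. On day 3 Ly6c2 was at 2585 CPM, below Spp1 (3756) and Lyz2 (2924). Which cells gave the Ly6c2 reads was not tested. The 11 T cell markers took 0.622 to 0.830% in naive brain, 0.0707 to 0.229% on day 3, 0.464 to 1.22% on day 30 and 0.326 to 0.456% in blood samples. Markers of endothelial cells, astrocytes, oligodendrocytes and neurons were each at 0.0990% of reads or less, and those of neutrophils, dendritic cells and B cells at 0.1003% or less. Erythroid and platelet genes reached 0.497% in blood and 0.174% on day 3. In such bulk libraries fewer cells of a type and less RNA per cell cannot be told apart, and the part of these marker shifts in the values below was not tested.

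Promoter sequence was matched for 5 of the 9 genes in RefSeq (GRCm38.p6), from 250 bases before to 50 after the start. Shown are those of Apoc2, whose day 3 libraries stood above all others, of Plin2, high in 1 day 3 library, and of Abca1, whose brain groups overlapped in scaled CPM. All are on the minus strand and written 5′ to 3′. Capitals mark matches to the motifs searched.
Apoc2 promoter, chr7:19677892-19678191: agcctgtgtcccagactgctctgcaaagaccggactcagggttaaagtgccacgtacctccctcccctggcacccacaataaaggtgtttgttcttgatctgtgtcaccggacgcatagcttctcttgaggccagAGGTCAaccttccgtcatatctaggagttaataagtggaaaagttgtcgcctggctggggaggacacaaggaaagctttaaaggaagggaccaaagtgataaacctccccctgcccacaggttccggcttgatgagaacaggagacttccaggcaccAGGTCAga
Plin2 promoter, chr4:86670010-86670309: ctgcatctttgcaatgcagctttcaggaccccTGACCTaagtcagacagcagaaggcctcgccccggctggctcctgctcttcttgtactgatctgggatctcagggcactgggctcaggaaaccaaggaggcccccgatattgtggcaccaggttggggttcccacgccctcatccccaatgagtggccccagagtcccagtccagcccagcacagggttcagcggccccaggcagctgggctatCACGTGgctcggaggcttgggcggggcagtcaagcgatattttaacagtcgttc
Abca1 promoter, chr4:53159846-53160145: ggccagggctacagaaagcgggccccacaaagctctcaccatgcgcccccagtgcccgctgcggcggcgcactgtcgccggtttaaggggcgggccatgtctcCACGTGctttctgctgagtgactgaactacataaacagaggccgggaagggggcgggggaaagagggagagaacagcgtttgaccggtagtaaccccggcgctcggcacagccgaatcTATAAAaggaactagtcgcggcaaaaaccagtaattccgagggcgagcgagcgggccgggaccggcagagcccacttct
On both strands, 7 motifs were searched. The nuclear receptor motif AGGTCA was present in 16.3% of 32851 promoters of this length, the E box CACGTG in 7.15%, TATAAA in 13.6%, the AP-1 motif TGANTCA in 7.81% and the PU.1 core GAGGAAGT in 3.20%. Direct repeats of AGGTCA with a spacing of 4 bases or of 1 base, each of which also matches the single motif, were in 0.0152% and 0.0396%. Apoc2 held AGGTCA with its first base at position -115 and at 43 counted from the start. Plin2 held it on the other strand at -218, and CACGTG at -4. Abca1 held CACGTG at -147 and TATAAA at -29. No window of the 5 genes held TGANTCA, GAGGAAGT or either repeat, and a match or its absence says nothing of binding.

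Apoe, whose protein carries cholesterol between brain cells, was the most abundant of the 9 genes per kilobase of exon in every group. It was read at 469, 2385 and 3526 CPM in naive brain, 9113, 783 and 353 on day 3, 2687, 1138 and 1358 on day 30, and 36.8, 215 and 32 in blood (replicates 1, 2 and 3). All 9 brain libraries were above all 3 blood libraries, and the brain groups overlapped each other, with the highest and the lowest brain value both on day 3. With unscaled CPM, blood replicate 2 (355) was above naive brain replicate 1 (349), so that separation depends on the scaling. On the scaled values, the mean was 2127 ± 1545 CPM in naive brain, 3416 ± 4938 on day 3, 1728 ± 838 on day 30 and 94.6 ± 104 in blood (SD, n = 3 each). Per kilobase, the mean level in the 4 groups was 995, 1598, 808 and 44.3 CPM in the same order. The gene lies on the minus strand of chromosome 7 (GRCm38, mm10) at 19696109 to 19699188.

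Apoc1 and Apoc2 lie beside Apoe on chromosome 7, at 19689481 to 19692660 and 19671579 to 19677941, both on the minus strand. The Apoc1 protein restrains lipoprotein lipase and receptor uptake. It was low throughout, with 237 reads over the 12 libraries: 28.2, 1.82 and 3.21 CPM on day 3, 12.9, 19.7 and 9.48 on day 30, 1.16, 0 and 0 in naive brain, and 4.87, 0 and 1.76 in blood. Both stroke groups were above naive brain in every library, and day 3 replicate 1 was far above day 3 replicates 2 and 3. Those 2 day 3 libraries held 4 and 6 reads, against 3 reads in naive brain replicate 1, so the separation at day 3 rests on few reads.

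Apoc2, the activating cofactor of lipoprotein lipase, was read at 1068, 34.1 and 156 CPM on day 3. It was at 1.16, 0.538 and 0.397 CPM in naive brain, at 0.227, 10.1 and 0 on day 30, and at 1.62, 8.23 and 0 in blood. Each day 3 library was above each of the other 9. The means were 419 ± 565 CPM on day 3, 3.44 ± 5.77 on day 30, 0.699 ± 0.407 in naive brain and 3.28 ± 4.36 in blood. The annotation places the predicted gene Gm44805 over Apoc2 on the same strand, and it has no entry of its own in the table used here. Apoc4, which lies between Apoc1 and Apoc2, held 0 to 8.13 CPM in the 12 libraries.

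Fabp5, the fatty acid binding protein of immune and skin cells, was read at 1033, 243 and 189 CPM on day 3. It held 16.3, 14.3 and 43.2 CPM in naive brain, 38.3, 56.5 and 38.4 on day 30, and 1.08, 4.94 and 0 in blood. The day 3 libraries stood above all others, and naive brain stood above blood. Their means were 488 ± 473, 24.6 ± 16.1, 44.4 ± 10.5 and 2.01 ± 2.60 CPM in that order (SD, n = 3). The gene lies on chromosome 3 at 10012548 to 10016607, on the plus strand. The annotation also holds a processed pseudogene, Fabp5l2, with no entry of its own in the table used here, and how reads that match both were counted is not given in those sources.

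Cd36, the scavenger receptor that takes up fatty acids and oxidised lipoproteins, was low, with 275 reads in all. Its values were 6.66, 23.2 and 10.2 CPM on day 3, 2.95, 16.5 and 0.903 on day 30, 0.775, 0.108 and 4.97 in naive brain, and 4.87, 1.10 and 24.3 in blood. Day 3 stood above naive brain in every library and overlapped both other groups. The gene lies on chromosome 5 at 17781690 to 17888801.

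Lpl, the lipase that hydrolyses triglyceride in circulating lipoproteins, held 479 reads over the 12 libraries. It was at 0, 0 and 2.68 CPM in naive brain, 37.7, 29.1 and 7.50 on day 3, 30.8, 8.72 and 18.5 on day 30, and 13.5, 14.3 and 2.82 in blood. Naive brain was below every library of the other 3 groups, and its counts of 0 in replicates 1 and 2 allow up to 1.16 and 0.323 CPM. Per kilobase of exon it was the lowest of the 9 genes in all 3 brain groups. The gene lies on chromosome 8 at 68880491 to 68907448.

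Plin2, the coat protein of lipid droplets, was read at 817, 103 and 55.2 CPM on day 3, 28.7, 32.3 and 101 in naive brain, 92.4, 5.05 and 59.2 on day 30, and 11.4, 8.23 and 11.3 in blood. The 3 brain groups overlapped, and day 3 replicate 1 stood above the other 11 libraries, of which the highest was day 3 replicate 2. With unscaled CPM day 3 (81.3 to 506) did not overlap naive brain (20.2 to 48.3). The gene lies on chromosome 4 at 86648386 to 86670060.

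Abca1 and Abcg1, the exporters that load cholesterol onto apolipoprotein A-I and onto high density lipoprotein, were detected in all 12 libraries. Abca1 held 116, 148 and 223 CPM in naive brain, 199, 116 and 104 on day 3, 68.9, 162 and 195 on day 30, and 19.5, 47.7 and 105 in blood. Abcg1 held 81.8, 59.2 and 105 CPM in naive brain, 115, 72.8 and 58.4 on day 3, 90.8, 66.1 and 135 on day 30, and 46.0, 112 and 41.9 in blood. The brain groups overlapped for both, and the mean of Abcg1 was 82.0 ± 22.9 CPM in naive brain and 82.1 ± 29.5 on day 3. With unscaled CPM day 3 did not overlap naive brain. Abca1 was then at 123 to 219 on day 3 and 86.2 to 107 in naive brain, and Abcg1 at 71.3 to 138 and 37.0 to 60.8. Abca1 lies on chromosome 4 at 53030787 to 53159895 and Abcg1 on chromosome 17 at 31057675 to 31117988.

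**Figure D1:**
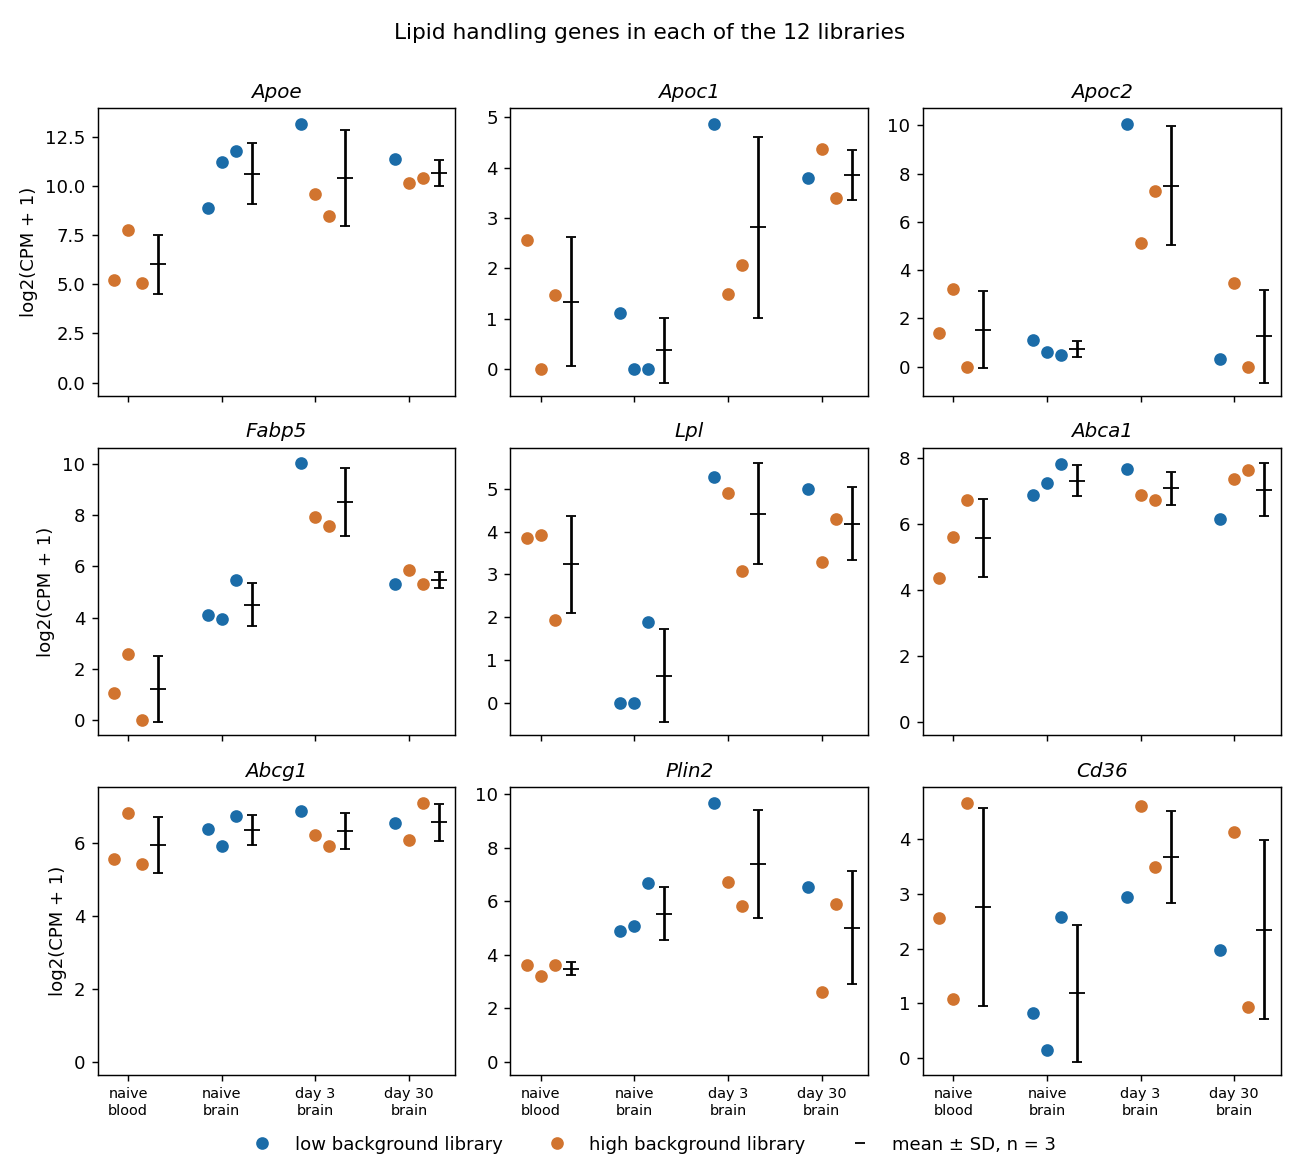
Level of each gene as log2(CPM + 1) in the 12 libraries, with points by library (blue, low receptor background; orange, high) and bars for the mean ± SD of 3. The day 3 points of Apoc2 and Fabp5 sit above all points of the other groups, and those of Abca1 and Abcg1 do not.

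Day 3 brain was compared with naive brain to ask what differed in the cells of injured brain early after stroke. Apoc2 was higher by 6.76 ± 1.20 on the log2(CPM + 1) scale (SE) and Fabp5 by 4.0 ± 0.91, and these were the 2 of 9 genes past the threshold, with adjusted p of 0.000992 and 0.0154 (limma, adjusted over 22352 tested genes). Over all genes, 0.152% were called higher and 0.564% lower (0.716% in all), and as the 9 were picked with these results known, nothing is read from the count. Lpl differed by 3.80 ± 1.11, Cd36 by 2.49 ± 1.17, Apoc1 by 2.44 ± 1.11 and Plin2 by 1.86 ± 0.93, none past the threshold with limma. DESeq2 called Lpl, Apoc1 and Plin2 as well, among 975 genes in all. Apoe differed by -0.21 ± 0.78, Abca1 by -0.22 ± 0.76 and Abcg1 by -0.02 ± 0.77, while with unscaled CPM they were at 0.77, 0.76 and 0.95. The median of all tested genes was 0.50, and it was 1.13 with unscaled CPM and 0.025 with quantile normalization. All 3 day 3 libraries stood above all 3 of naive brain for 5 of the 9 (Apoc1, Apoc2, Fabp5, Lpl and Cd36), against 8.76% of tested genes, and below for 0, against 8.5%. With unscaled CPM they also did so for Plin2, Abca1 and Abcg1, and the share of all tested genes was not computed on that scale. The Fabp5 call was lost without naive brain replicate 1 (adjusted p = 0.0600), without replicate 2 (0.116) and without each day 3 library (0.0532 to 0.0859), and with a pseudocount of 0.1 (0.112), a background term (0.0966). The Apoc2 call held without each single library and with a background term, and was lost with a pseudocount of 0.1 (adjusted p = 0.0609). Among low background libraries, with 1 at day 3, the difference was 9.32 for Apoc2 and 5.51 for Fabp5, and as 0 of all genes were called there, that fit gives no answer on the calls.

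A further 76 lipid handling genes in 7 roles, all tested, were chosen by function. They too were chosen with earlier results of these data known, so their counts and shares are given as a description. At day 3 against naive brain, 2 of 76 rose and 0 fell, a share of 2.63% against 0.152% of all genes higher, and the list's median was 0.27. The 2 were Msr1, a scavenger receptor of macrophages, and Apod, a lipocalin apolipoprotein of glia. Msr1 was at 187, 12.7 and 37.0 CPM at day 3 and 2.32, 0.108 and 0.099 in naive brain, a difference of 4.86 ± 1.15 (adjusted p = 0.0218, limma). Apod was at 97.6, 45.5 and 23.6 CPM at day 3 and 4.26, 0.215 and 0.099 in naive brain, a difference of 4.66 ± 1.14 (adjusted p = 0.0276). Both calls were lost without naive brain replicate 2 (Msr1 0.146, Apod 0.208), naive brain replicate 3 (0.146 and 0.223) and day 3 replicate 3 (0.102 and 0.0698), and that of Apod without day 3 replicate 2 (0.150). Both calls were also lost with a pseudocount of 0.1, no filter on low values, quantile normalization and a background term, and that of Apod with edgeR (0.200). Against the 1 low background library of day 3 the differences were 6.88 for Msr1 and 5.69 for Apod. By role, 1 of 11 lipoprotein genes and 1 of 12 receptor genes passed, and none of the lipases, binding and storage, efflux, regulator or oxidation genes did. Among macrophage markers 3 of 14 were higher at day 3, as were 3 of 7 erythroid and platelet genes, and 10 of 11 T cell and 3 of 14 microglia markers were lower.

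**Figure D2:**
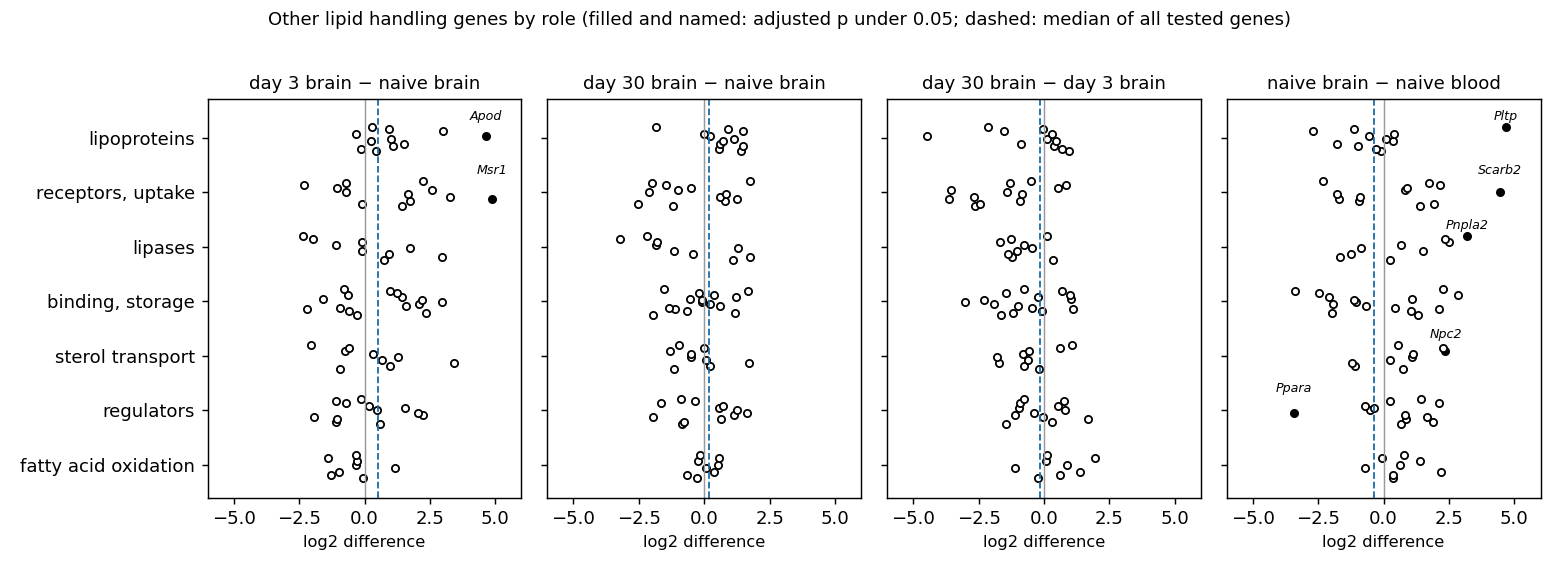
Log2 difference of each further lipid handling gene in each comparison, grouped by role, filled and named where the adjusted p was under 0.05, with the median of all tested genes as a dashed line. At day 3 against naive brain Msr1 and Apod are the 2 named points.

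At 30 days after stroke, compared with naive brain, 0 of the 9 genes passed by limma (0 of all genes higher and 0.224% lower). Lpl differed by 3.56 ± 1.11 (adjusted p = 0.215) and Apoc1 by 3.48 ± 1.11 (adjusted p = 0.232, limma), and these were the 2 of 9 genes whose libraries did not overlap, both higher, against 7.22% of all tested genes (6.03% lower). Fabp5 differed by 0.98 ± 0.91, Plin2 by -0.52 ± 0.93 (0.13 with unscaled CPM) and Apoe by 0.02 ± 0.78. The median of all genes was 0.19, and 0.57 with unscaled CPM. Of the 76 further genes 0 passed in either direction with limma, edgeR or DESeq2, and the list's median was -0.04. DESeq2 called Apoc1 and Lpl, 2 of the 9, among 225 genes in all (158 higher and 67 lower), and edgeR none of the 9 among 6. The day 3 and day 30 comparisons share the naive brain libraries.

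Between the 2 times after stroke, Apoc2 was lower at day 30 by -6.24 ± 1.20 and was the 1 of 9 genes past the threshold (adjusted p = 0.00317, limma; 0.139% of all genes lower and 0.116% higher, 0.255% in all). Fabp5 differed by -3.02 ± 0.91 (adjusted p = 0.203) and Plin2 by -2.38 ± 0.93 (0.581), and the median of all genes was -0.15 (-0.45 with unscaled CPM). Apoc2 and Fabp5 were the 2 of 9 genes whose day 30 libraries were all below those of day 3, against 5.65% of tested genes, and 0 were all above, against 4%. Within background classes the order held for both: among low background libraries Apoc2 was at 1068 CPM at day 3 and 0.227 at day 30, and Fabp5 at 1033 and 38.3. Among high background libraries Apoc2 spanned 34.1 to 156 at day 3 and 0 to 10.1 at day 30, and Fabp5 189 to 243 and 38.4 to 56.5. Apoe went from 9113 to 2687 in the low class and from 353 to 783 up to 1138 to 1358 in the high class. Without day 3 replicate 1 the Apoc2 call was lost (-4.96, adjusted p = 0.0540), as it was with a pseudocount of 0.1 (0.0732). Among low background libraries, 1 at each time, the difference was -9.77. Fabp5 was called with unscaled CPM (0.0196), quantile normalization (0.0409) and DESeq2 (0.00474). Of the 76 further genes 0 passed with limma or edgeR and 5 with DESeq2, and the list's median was -0.58. Apod differed by -4.45 ± 1.14 (adjusted p = 0.0687), and with the replicate number as a block it passed (0.0419).

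Naive brain was compared with naive blood as the 2 reference groups. Apoe was higher in brain by 4.61 ± 0.78 and Fabp5 by 3.30 ± 0.91, the 2 of 9 genes past the threshold (adjusted p = 2.56e-05 and 0.0141, limma; 6.61% of all genes were higher and 0.975% lower, 7.59% in all). Plin2 differed by 2.06 ± 0.93, Abca1 by 1.74 ± 0.76 and Lpl by -2.62 ± 1.11, and all 3 had libraries that did not overlap between the groups. In total 4 of 9 genes stood apart higher (15.6% of tested genes) and Lpl apart lower (15.2%). The gap for Lpl was narrow, at 2.68 CPM (27 reads) in naive brain replicate 3 and 2.82 (8 reads) in blood replicate 3. With unscaled CPM Apoe and Abca1 overlapped. Abca1 was then at 139 in blood replicate 3 and 86.2 to 107 in naive brain. All 14 microglia markers were also higher in naive brain. The Fabp5 call was lost without blood replicate 3 (adjusted p = 0.0856) and without naive brain replicate 3 (0.114), with a pseudocount of 5 (0.0801) and with unscaled CPM (0.0746). With a background term neither gene passed, Apoe being at 2.0. As all naive brain libraries were low background and all blood libraries high, that term was estimated from the stroke groups alone. It therefore cannot show a call between brain and blood to be lost.

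Of the 76 further genes, 4 were higher in naive brain, 5.26% against 6.61% of all genes, and 1 was lower, 1.32% against 0.975%. Pltp, the phospholipid transfer protein gene, was at 126, 151 and 127 CPM in brain and 2.70, 3.29 and 8.45 in blood (4.67 ± 0.82, adjusted p = 5.19e-05). Scarb2, a lysosomal membrane receptor gene, was at 58.9, 155 and 148 CPM in brain and 5.95, 0 and 18.0 in blood (adjusted p = 0.00134). Pnpla2, the adipose triglyceride lipase gene, differed by 3.20 ± 0.86 (0.0113) and Npc2, a lysosomal cholesterol carrier, by 2.37 ± 0.70 (0.0243). Ppara, a nuclear receptor of fatty acid oxidation, was lower in brain, at 3.49, 0.215 and 0.794 CPM against 21.1, 25.8 and 19.7 in blood (-3.43 ± 1.12, adjusted p = 0.0451). Without single libraries Pltp and Scarb2 stayed past the threshold. Pnpla2 lost its call without blood replicate 1 (0.0805) and naive brain replicate 3 (0.0894). Npc2 lost it without blood replicates 2 and 3 and naive brain replicates 2 and 3 (0.0831 to 0.128), and Ppara without each library but naive brain replicate 1 (0.0911 to 0.175). With a background term none of the 5 passed, but as for the 9 genes that fit cannot show a call to be lost here. The count of called list genes was 3 without each blood library, 9 without naive brain replicate 1, 3 without replicate 2 and 2 without replicate 3. The highest genes of each role over the 12 libraries included Npc2 (mean 343 CPM), Sorl1 (164), Lrp1 (103), Acsl5 (103), Pltp (89.9), Hadhb (85.5), Mylip (84.9) and Pnpla2 (77.2).

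**Figure D3:**
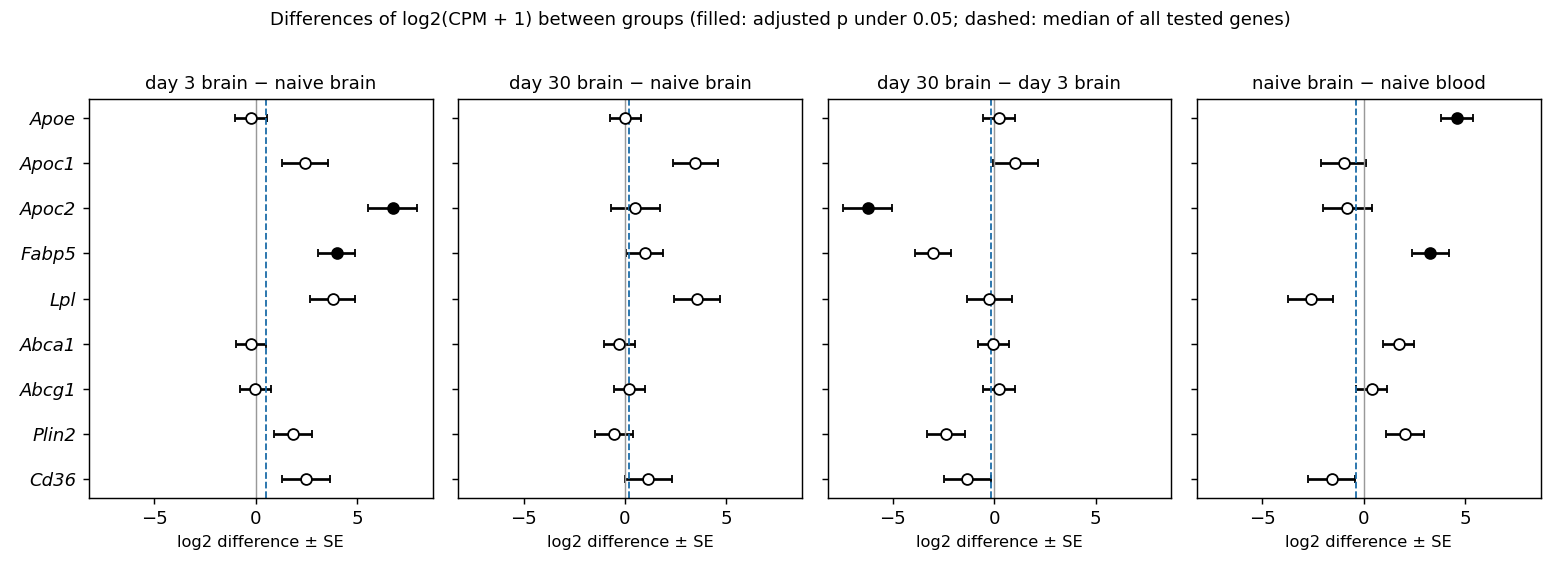
Log2 difference of each of the 9 genes in the 4 comparisons (points, with bars for the SE), filled where the adjusted p was under 0.05, and the median of all tested genes as a dashed line. Apoc2 and Fabp5 lie farthest above 0 at day 3 against naive brain, and Apoe and Fabp5 in naive brain against blood.

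Reads of the 9 genes were also set against reads of the 14 microglia markers in the same library. Per 100 such reads, Apoe held 1.03 to 7.08 in naive brain, 4.86 to 25.5 at day 3 and 15.3 to 28.5 at day 30. Fabp5 held 0.0359 to 0.0425 in naive brain, 2.60 to 7.92 at day 3 and 0.218 to 1.42 at day 30. Apoc2 held 1.11 to 2.74 at day 3 and 0 to 0.253 at day 30, and Plin2 0.0633 to 0.0974 in naive brain and 0.760 to 3.37 at day 3. Abca1 held 0.216 to 0.439 in naive brain and 0.511 to 3.77 at day 3. Abcg1, at nearly the same mean CPM in both groups, held 0.102 to 0.180 in naive brain and 0.295 to 2.37 at day 3. On this ratio 8 of the 9 genes, all but Apoe, had day 3 ranges above those of naive brain. The share of all tested genes that did so was not computed, so nothing is read from the count. The markers in the denominator were themselves lower at day 3, with 14 of 14 differences below 0 and a median of -2.38. The 14 monocyte and macrophage markers had a median difference of 2.63. Against their reads, 4 of the 9 had day 3 ranges above naive brain (Apoc1, Apoc2, Fabp5 and Lpl) and the other 5 overlapped. For this ratio too the share of all tested genes was not computed. In naive brain, Ly6c2 had the highest mean of these markers and Cst3 of the microglia markers, so these genes weigh heavily in the denominators.

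**Figure D4:**
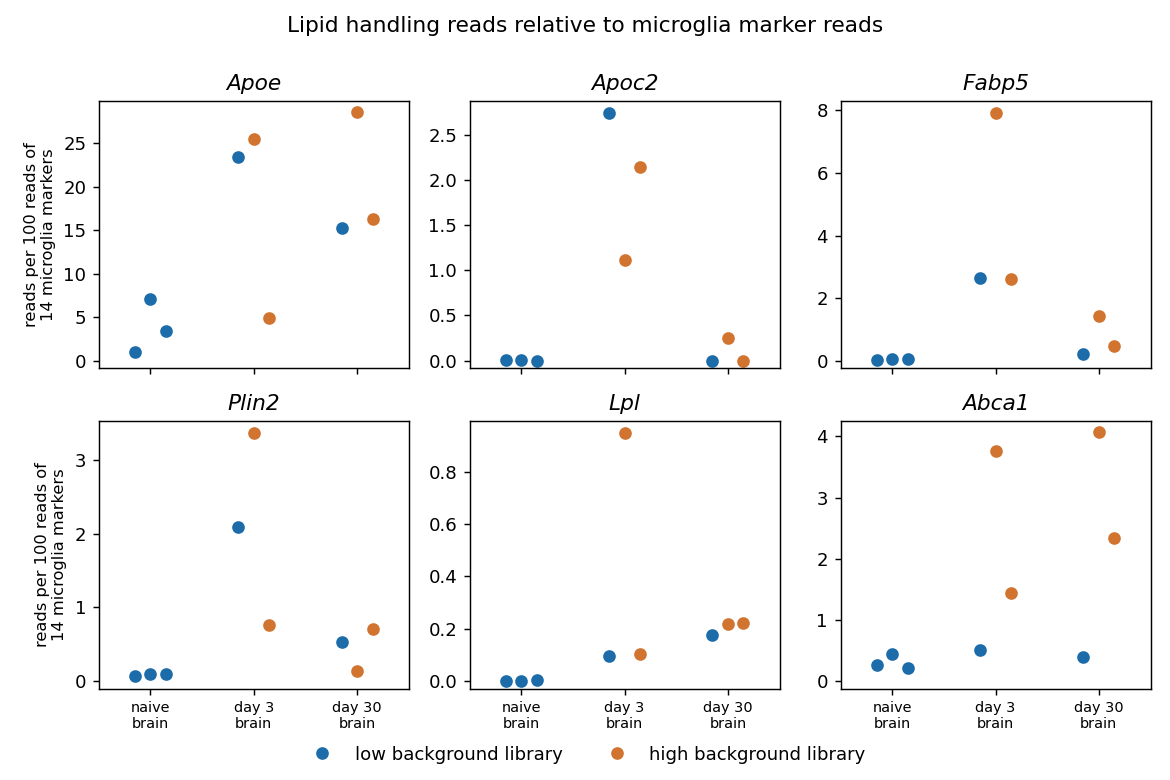
Reads per 100 reads of the 14 microglia markers, for 6 of the 9 genes, by library and group, on linear axes that differ between panels. The naive brain points of Fabp5 lie between 0.0359 and 0.0425 and its day 3 points between 2.60 and 7.92.

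To list genes with the most similar pattern, centred log2(CPM + 1) profiles over the 12 libraries were compared by root mean square (RMS) difference, over 10801 genes of at least 10 CPM on average. The libraries share their depth and background, so the measure is a description. Apoe, with an RMS deviation of its own of 2.39, was nearest to Litaf (0.732), Apobec1 (0.884) and Bhlhe40 (0.891). Apoc2 (own 3.11) was nearest to Tnfsf13 (1.45), Cd24a (1.46) and Ms4a7 (1.52), and Fabp5 (2.73) to Mpeg1 (1.22), Il1r2 (1.29) and Clic4 (1.30). Plin2 (1.89) was nearest to C5ar1 (0.787), Lgals3 (0.830) and Tlr13 (0.855). Abca1 (0.945) was nearest to Nav3 (0.458), Cask (0.516) and Eea1 (0.530), and Abcg1 (0.511) had Ktn1 (0.344) and Jak2 (0.374) among its 3 nearest. The lower genes were nearest to Phf11a, Tpst1 and Nampt for Apoc1, Zfp715, Sos2 and Ube2v2 for Lpl, and Pi4k2b, Kat6b and Pde4a for Cd36. Among the 9 genes themselves the smallest difference was between Abca1 and Abcg1, at 0.868. These also varied least of the 9, and 0.868 is above the 0.511 of Abcg1 itself, so no shared pattern is read from it.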

How the data were processed

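RNA was prepared with the SMART-Seq v4 kit from cells sorted into lysis buffer, per the labels' protocols. The tools named are FastQC 0.11.2, STAR 2.5.3a, featureCounts and edgeR, with the build mm10, per the submitters' processing notes. Which annotation and strand setting they used is not given in the sources used here. Scaled CPM, a signal value, were deposited by the authors for 23937 genes in 12 libraries. The columns sum to 526580 to 2086820, and 100% of values are whole reads within 1e-06, from which the read counts were recovered.

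Genes at 1 CPM or more in at least 3 libraries were tested (22352, with 1585 left out). The test was limma 3.58.1 in R 4.3.3 on log2(CPM + 1), with a trend, all 12 libraries and Benjamini-Hochberg adjustment within each of 4 comparisons, two-sided, threshold 0.05; scripts were tested on simulated data. Alternatives were pseudocounts of 0.1 and 5, other filters and scalings, edgeR 4.0.16 and DESeq2 1.42.0 on the recovered counts, a replicate block, a background term, low background libraries alone, and leaving out each library. The replicate numbers come from the sample titles. Same-numbered day 3 and day 30 libraries deviated together (r = 0.530, 0.284 and 0.165), and no other comparison had r above 0 for each pair. In both stroke groups replicate 1 was low background and replicates 2 and 3 high, so pairing and background cannot be told apart. Gene positions are from GENCODE vM21. The 9 genes, the 76 further genes and the marker lists were chosen with earlier results of these data known. Named are all 9 genes, every list gene past the threshold, up to 3 list genes per role with the highest mean, and the 3 nearest profiles of each gene, of which 1 is not reported here.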

Additional observations from a re-analysis of the deposited data

How the results depend on the processing

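Of the 36 differences of the 9 genes, 20 kept their sign in every alternative run, and 68 of 603 alternative values had the other sign. The calls changed in number as follows, with small changes left out. At day 3 against naive brain, 2 of the 9 genes were called, but 0 with a pseudocount of 0.1 or low background libraries alone, 1 with a background term and 5 with DESeq2 (1 to 2 leaving out single libraries). At day 30 against naive brain DESeq2 called 2 rather than 0. At day 30 against day 3, 1 was called, but 0 with a pseudocount of 0.1 or low background libraries alone, and 2 with unscaled CPM, quantile normalization or DESeq2 (0 to 1 leaving out single libraries). In naive brain against blood 2 were called, but 1 with a pseudocount of 5 or unscaled CPM and 0 with a background term (1 to 2 leaving out single libraries). Plin2 at day 3 against naive brain was not called in 15 of 17 alternatives and was called in the rest. Lpl in naive brain against blood was not called in 15 of 16 and was called in the remaining alternative. Of the 76 further genes 2 were called at day 3 against naive brain, but 0 with a pseudocount of 0.1, no filter, quantile normalization, a background term or low background libraries alone, 1 with edgeR and 7 with DESeq2 (0 to 3 leaving out single libraries). At day 30 against day 3, 0 were called, but 1 with a pseudocount of 5, quantile normalization, the replicate block or a background term, 2 with unscaled CPM and 5 with DESeq2. In naive brain against blood 5 were called, but 2 with quantile normalization, 3 with edgeR, 12 with DESeq2 and 0 with a background term (2 to 9 leaving out single libraries). The cause was not tested. The low background fit has 1 library in each stroke group and called 0 of all genes in each of its comparisons, so it cannot show a call to be lost. Low background libraries alone give no value against blood, which has none. In naive brain against blood the background term was estimated from the stroke groups alone, so there it cannot show a call to be lost either. The replicate block changed no call of the 9 genes; among the further genes it also moved Plin5 in naive brain against blood from 0.0505 to 0.0477, where the numbers do not pair.

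Log2 differences that changed sign were these. Apoe at day 3 against naive brain (-0.21) was 0.77 with unscaled CPM, 0.96 with quantile normalization, 0.69 with edgeR, 0.93 with DESeq2, 1.53 with a background term and 2.53 in low background libraries, and -1.59 to 0.76 leaving out single libraries. Apoe at day 30 against day 3 (0.24) was -0.061, -0.079, -0.95 and -0.96 with the same first 4, and -1.76 in low background libraries (-0.73 to 1.61). Apoe at day 30 against naive brain (0.02) was -0.26 with edgeR and -0.027 with DESeq2 (-0.85 to 0.60). Abca1 at day 3 against naive brain (-0.22) was 0.76 with unscaled CPM, 0.96 with quantile normalization, 0.22 with DESeq2 and 0.34 in low background libraries (-0.51 to 0.032). Abca1 at day 30 against naive brain (-0.27) was 0.41, 0.39 and 0.19 with unscaled CPM, quantile normalization and DESeq2 (-0.56 to 0.18), and at day 30 against day 3 (-0.05) 0.019 with edgeR (-0.34 to 0.40). Abcg1 at day 3 against naive brain (-0.02) was 0.95 with unscaled CPM, 1.06 with quantile normalization, 0.024 with edgeR, 0.42 with DESeq2, 0.23 with a background term and 0.52 in low background libraries (-0.29 to 0.19). Abcg1 at day 30 against day 3 (0.24) was -0.058, -0.26 and -0.34 with unscaled CPM, quantile normalization and low background libraries (-0.024 to 0.51), at day 30 against naive brain (0.22) it spanned -0.042 to 0.46, and against blood (0.41) it was -0.79, -0.80 and -0.29 with unscaled CPM, quantile normalization and DESeq2. Apoc1 at day 30 against day 3 (1.04) was -1.07 in low background libraries. Apoc2 at day 30 against naive brain (0.52) was -0.089 with a pseudocount of 0.1, -0.19 with quantile normalization and -0.44 in low background libraries (-0.59 to 1.15), and in naive brain against blood (-0.79) 0.091 with quantile normalization (-1.56 to 0.043). Lpl at day 30 against day 3 (-0.24) spanned -0.91 to 0.21. Plin2 at day 30 against naive brain (-0.52) was 0.13 with unscaled CPM, 0.19 with DESeq2, 1.38 with a background term and 1.01 in low background libraries (-1.29 to 0.69), and in naive brain against blood (2.06) -0.80 with a background term. Over all genes, 160 were called at day 3 against naive brain (22 to 666 leaving out single libraries, 975 with DESeq2), 50 at day 30 against naive brain (1 to 532, 225 with DESeq2), 57 at day 30 against day 3 (26 to 115, 171 with DESeq2) and 1696 in naive brain against blood (768 to 1939, 3799 with DESeq2). The other alternatives gave 0 to 225, 0 to 119, 0 to 265 and 35 to 1887. The split of higher and lower calls went from 34 and 126 to 115 and 110 with unscaled CPM and 25 and 31 with quantile normalization in the first comparison, from 0 and 50 to 29 and 90 and to 4 and 8 in the second, and from 1478 and 218 to 693 and 870 with unscaled CPM in the last. The shares of all genes called therefore vary with the library set and the scaling.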

Other observations

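Set against the 14 monocyte and macrophage marker genes in place of microglia markers, Fabp5 held 0.284 to 0.733 reads per 100 marker reads in naive brain, 2.68 to 7.47 at day 3 and 0.551 to 2.16 at day 30. Apoc2 held 0.00674 to 0.0226 in naive brain, 1.05 to 4.08 at day 3 and 0 to 0.387 at day 30. Apoe held 9.11 to 59.9 in naive brain, 5.02 to 34.8 at day 3 and 32 to 43.6 at day 30, so its ranges overlapped. Plin2 held 0.557 to 1.71 in naive brain and 0.784 to 3.17 at day 3, and Abca1 2.25 to 3.79 and 0.760 to 3.55, so both overlapped too. Spp1, a secreted glycoprotein gene in the macrophage list, was at 788 to 9672 CPM at day 3 and 0.646 to 12.6 CPM in naive brain. It does not stand for the list, whose 14 differences between these groups ran from -1.28 to 8.48. Of them 12 were above 0 and 2 below, and 3 were called higher.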
